A study of Mus musculus with 15 samples.

Results

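The EGF family and its receptors were examined as 10 genes in mouse endometrial epithelial organoids, which are uterine epithelial cells grown as small bodies in Matrigel. The genes were taken by name from the 16729 genes of the expression matrix. They comprised 7 ligand genes (*Areg*, *Ereg*, *Hbegf*, *Btc*, *Tgfa*, *Egf* and *Nrg1*) and 3 receptor genes (*Egfr*, *Erbb2* and *Erbb3*), and all 10 were found in the matrix. RNA sequencing covered 15 samples in 4 groups. Control organoids came from Smad2 flox/flox; Smad3 flox/flox mice, and *Smad2/3* cKO organoids came from mice with the same floxed alleles plus Ltf cre/+, a Cre recombinase driven by the lactoferrin gene, which is active in the uterine epithelium. Both were grown with DMSO vehicle or with 500 nM A83-01, an inhibitor of the receptor kinases ALK4, ALK5 and ALK7 that phosphorylate SMAD2 and SMAD3. The groups were control + vehicle (n = 3), control + A83-01 (n = 4), *Smad2/3* cKO + vehicle (n = 4) and *Smad2/3* cKO + A83-01 (n = 4). The mice were adult females of mixed strain, C57BL/6J with 129S5/SvEvBrd, stated as 6 to 8 weeks old unless otherwise given, and 2 estradiol doses at weaning were used to switch on the Cre. The organoid medium of every group held 50 ng per ml of recombinant human EGF together with FGF-10, HGF, WNT3a, R-spondin and Noggin, so the EGF receptor was supplied with ligand in all samples. By their labels, replicates 1 to 3 of both control groups share the same 3 numbers.

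The EGF family ligands are made as precursors in the cell membrane and are released by proteases. AREG, TGFA and EGF bind EGFR, HBEGF, BTC and EREG bind EGFR and ERBB4, and NRG1 binds ERBB3 and ERBB4. ERBB2 has no ligand of its own and serves as the partner of the other receptors, while ERBB3 has little kinase activity and passes its signal on through such a partner. The receptors act through the RAS to ERK cascade and through PI3K and AKT. In the mouse uterus, *Areg* is known as an epithelial gene switched on by progesterone before implantation, and *Hbegf* is known for its expression in the luminal epithelium where the blastocyst attaches.

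The values are normalized counts, that is, estimated reads per gene scaled for the depth of each sample, and they summed to between 20241771 and 24423127 per sample. The 9 epithelial markers summed to 265618 to 342228 in control + vehicle, to 173009 to 290897 in control + A83-01, to 137965 to 251559 in *Smad2/3* cKO + vehicle and to 135878 to 206044 in *Smad2/3* cKO + A83-01, so that control + vehicle lay wholly above both *Smad2/3* cKO groups. Of these markers, *Epcam* was between 19889 and 28844 in all 15 samples, whereas *Krt19* was 27950 to 43966 in control + vehicle and 5765 to 19471 in *Smad2/3* cKO + vehicle. The part of this in the values of the members was not tested. *Smad2/3* cKO + vehicle replicate 2 stood apart by macrophage genes. *Lyz2*, a lysozyme gene of macrophages, was 3372 in it and at most 86.9 in the other 14 samples, and *Adgre1*, the macrophage marker F4/80, was 351 against at most 9.01. Control + A83-01 replicate 1 stood apart on the second principal component of all genes, at 79.3 against −41.5 to 42.5 in the other 14 samples. Mitochondrial genes made up 0.419% to 1.605% of the sum, with the lowest shares in that replicate and, at 0.439%, in *Smad2/3* cKO + A83-01 replicate 2. Stromal markers (8 found of 10 listed) reached at most 203 in sum, with *Dcn* and *Lum* at 0 in all 4 *Smad2/3* cKO + vehicle samples, and endothelial markers (2 of 5) reached 27.6. *Smad2* was 1335, 1132 and 1045 in control + vehicle and between 821 and 924 in *Smad2/3* cKO + vehicle, and *Smad3* was 1532, 1741 and 1599 against 1170 to 1977. Each value is a sum over all exons of the gene, so it does not show the loss of the floxed ones. *Smad7*, which SMAD3 induces directly, was 191, 194 and 270 in control + vehicle and between 4.70 and 90.4 in the other 12 samples. Fewer cells of one kind and less RNA per cell cannot be told apart in these bulk samples.

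The group mean was highest in control + vehicle for 8 of the 10 genes, the exceptions being *Ereg* and *Erbb2*. Among these 8, *Erbb3* was nearly level with *Smad2/3* cKO + vehicle (2342 against 2321). *Btc* was nearly level with control + A83-01 (330 against 305), and *Egf* was too low to be tested. For *Areg* and *Egfr* all control + vehicle samples also lay above every other sample, for *Areg* by a small margin (32.5 against 31.2). The share of all genes with either pattern was not counted. No member passed the thresholds (an adjusted p under 0.01 in limma, with a change of more than 1.4-fold in either direction) in any of the 4 comparisons of 2 groups. In control + A83-01 against control + vehicle, 9 members were tested and 0 passed, where 2.27% of all 13009 genes tested did. In *Smad2/3* cKO + vehicle against control + vehicle, 0 of 9 passed, where 7.38% of 13149 did. In *Smad2/3* cKO + A83-01 against *Smad2/3* cKO + vehicle, 0 of 8 passed, where 0% of 12998 did, and 4.26% of all genes had an unadjusted p below 0.05. In *Smad2/3* cKO + A83-01 against control + A83-01, 0 of 9 passed, where 0.0232% of 12915 did. *Egf* stayed under the minimum mean of 10 in every comparison and *Areg* in that of the 2 *Smad2/3* cKO groups.

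Before adjustment, 3 of the 9 members tested had p below 0.05 in limma for control + A83-01 against control + vehicle (22.2% of all genes), 5 of 9 for *Smad2/3* cKO + vehicle against control + vehicle (33.7%), 0 of 8 between the *Smad2/3* cKO groups (4.26%), and 3 of 9 for *Smad2/3* cKO + A83-01 against control + A83-01 (9.52%). The first and the second share the control + vehicle samples, so they are not independent of each other. The median log2 fold change of the members tested was −0.32 and −0.86 in these 2 comparisons, where the median of all genes was −0.02 and 0.00. It was 0.14 between the *Smad2/3* cKO groups and −0.62 between the groups grown with A83-01, where the medians of all genes were 0.00 and 0.01.

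**Figure D1:**
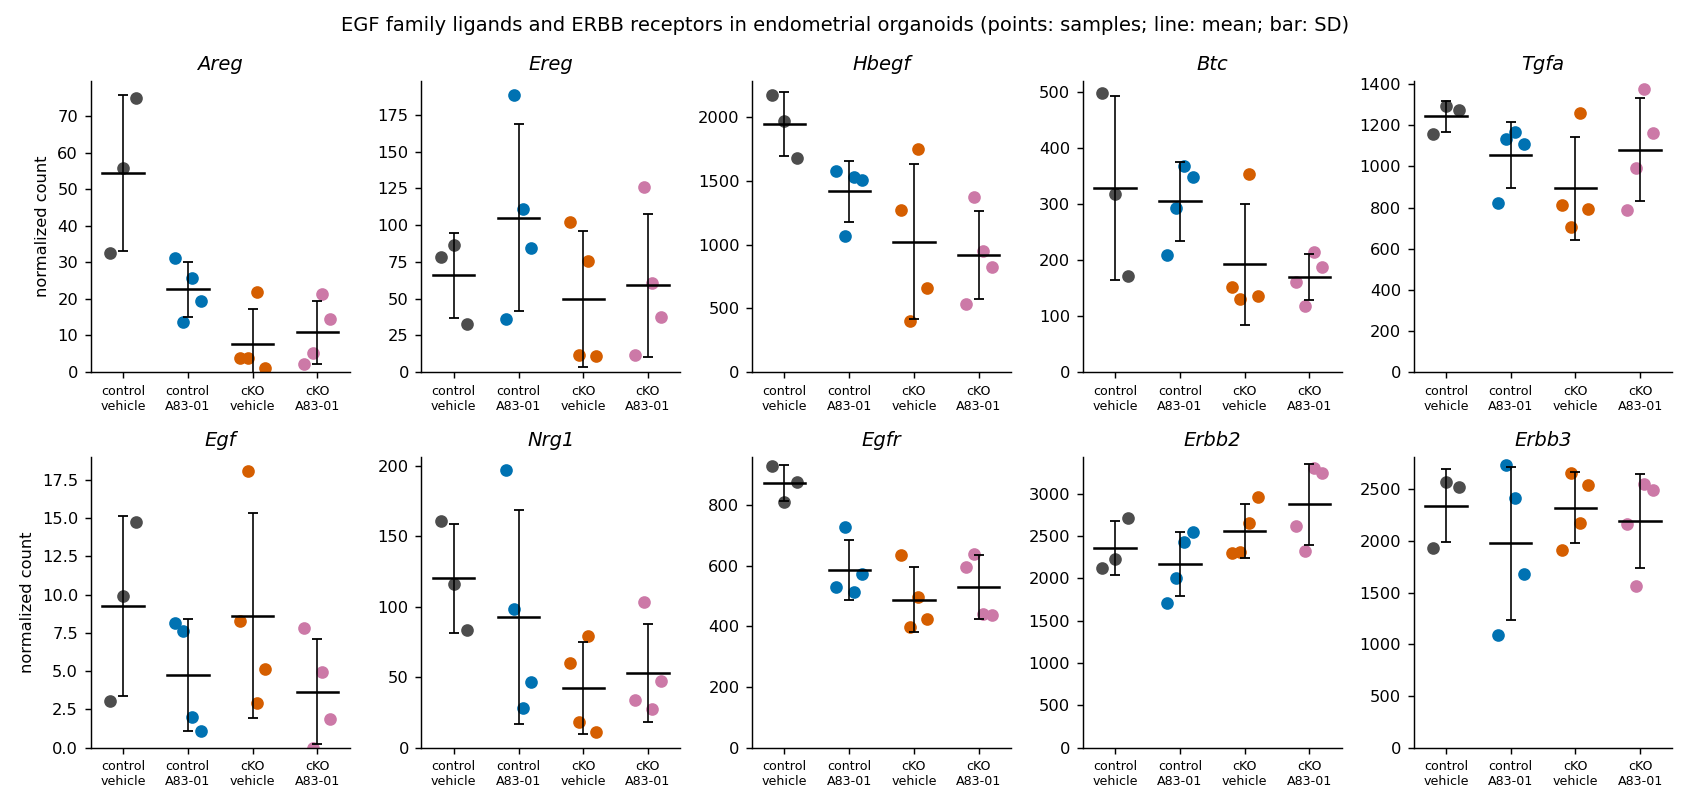
Normalized count (linear axes from 0) of the 7 ligand genes and 3 receptor genes in the 4 groups, with a point per sample, a line at the group mean and a bar of 1 SD that is cut off at 0. All 3 control + vehicle samples lie above the 4 samples of control + A83-01 and of *Smad2/3* cKO + vehicle for *Areg* and *Egfr*, and the groups overlap for *Erbb2* and *Erbb3*.

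*Areg*, the gene of amphiregulin, lies on chromosome 5 of the mouse. Its normalized count was 32.5, 55.9 and 74.9 in control + vehicle and 31.2, 13.8, 25.7 and 19.5 in control + A83-01. It was 3.90, 3.81, 22.0 and 1.22 in *Smad2/3* cKO + vehicle. Values in *Smad2/3* cKO + A83-01 were 2.25, 5.21, 21.3 and 14.5. The 3 control + vehicle samples were above every other sample, and *Smad2/3* cKO + vehicle replicate 3 and *Smad2/3* cKO + A83-01 replicate 3 stood highest in their groups. The mean was 54.4 ± 21.3 (SD, n = 3) in control + vehicle, 22.6 ± 7.56 (n = 4) in control + A83-01, 7.73 ± 9.59 (n = 4) in *Smad2/3* cKO + vehicle and 10.8 ± 8.72 (n = 4) in *Smad2/3* cKO + A83-01. The log2 fold change of *Areg* on the log2(normalized count + 1) scale was −3.16 (SE 0.82, 95% interval −5.00 to −1.31, limma adjusted p = 0.0280) for *Smad2/3* cKO + vehicle against control + vehicle. It was −1.21 (SE 0.49, adjusted p = 0.185) for control + A83-01 against control + vehicle. Both values missed the adjusted p of 0.01. At such low counts the size depends on the number added before the log, and the *Smad2/3* cKO value was −3.48 with 0.1 and −1.93 with 10 (adjusted p = 0.0356 and 0.0165). *Areg* passed the thresholds without *Smad2/3* cKO + vehicle replicate 3 (−3.81, adjusted p = 0.00709), and without replicate 2 of that group it had an adjusted p of 0.0538.

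The bases before the start of *Areg* and of *Egfr* are shown because this ligand and its receptor both had all their samples below control + vehicle in both comparisons with it. The windows are the 250 bases upstream of the annotated start in RefSeq on build GRCm38.p6, at chr5:91139349-91139598 and chr11:16751953-16752202 on the plus strand, and capitals mark the GC box GGGCGG read on either strand.
Areg: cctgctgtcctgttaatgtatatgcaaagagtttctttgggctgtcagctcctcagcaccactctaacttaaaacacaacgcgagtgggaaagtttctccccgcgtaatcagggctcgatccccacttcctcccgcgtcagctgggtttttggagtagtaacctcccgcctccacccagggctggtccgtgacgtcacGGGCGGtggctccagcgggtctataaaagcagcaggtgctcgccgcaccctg
Egfr: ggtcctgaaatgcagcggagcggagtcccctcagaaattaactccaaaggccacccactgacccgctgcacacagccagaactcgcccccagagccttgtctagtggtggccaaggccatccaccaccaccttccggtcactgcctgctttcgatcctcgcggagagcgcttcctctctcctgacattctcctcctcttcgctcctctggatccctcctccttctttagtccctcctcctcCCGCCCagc
The GC box lay 52 bases before the start of *Areg* and 9 bases before that of *Egfr*, and 32.7% of the 32851 windows of this length hold it at least 1 time. Neither window held the SMAD element CAGAC, which 42.2% of all windows hold, or the AP-1 elements TGACTCA and TGAGTCA, which 4.46% hold. Of the other members with a window in the table, *Tgfa* held CAGAC 1 time and the GC box 2 times, 1 of the 2 *Egf* windows held CAGAC 1 time, and *Btc* and *Erbb2* held no match. These are matches of letters in a short window, and no window was found for *Ereg*, *Hbegf*, *Erbb3* and *Nrg1*.

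*Hbegf*, the gene of heparin-binding EGF-like growth factor on chromosome 18, had the highest level per length among the ligands. It was 2177, 1973 and 1679 in control + vehicle, 1573, 1064, 1532 and 1503 in control + A83-01, and 1274, 402, 1749 and 658 in *Smad2/3* cKO + vehicle. In *Smad2/3* cKO + A83-01 it was 533, 1369, 949 and 825. The control + A83-01 samples all lay under the control + vehicle samples, whereas *Smad2/3* cKO + vehicle ranged from the lowest value of all 15 samples in replicate 2 to a value within the control + vehicle range in replicate 3. The log2 fold change of *Hbegf* was −0.46 (SE 0.19, adjusted p = 0.186) for control + A83-01 and −1.14 (SE 0.44, 95% interval −2.13 to −0.15, adjusted p = 0.102) for *Smad2/3* cKO + vehicle, each against control + vehicle. Without *Smad2/3* cKO + vehicle replicate 2, the library with *Lyz2* and *Adgre1*, the second value was −0.77 (adjusted p = 0.147). Between the groups grown with A83-01 it was −0.69 (SE 0.27, adjusted p = 0.451).

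*Tgfa*, the gene of transforming growth factor alpha, was 1159, 1295 and 1275 in control + vehicle, 820, 1132, 1165 and 1108 in control + A83-01, 814, 706, 1259 and 791 in *Smad2/3* cKO + vehicle, and 790, 995, 1379 and 1163 in *Smad2/3* cKO + A83-01. Each of the other groups had at least 1 sample above 1159, the lowest control + vehicle value, so the groups overlapped. Its log2 fold change against control + vehicle was −0.51 (SE 0.20, 95% interval −0.97 to −0.06, adjusted p = 0.107) in *Smad2/3* cKO + vehicle and −0.25 (SE 0.17, adjusted p = 0.465) in control + A83-01. *Btc*, the gene of betacellulin, was 499, 318 and 171 in control + vehicle, 209, 294, 367.4 and 349 in control + A83-01, 152, 130, 355 and 135 in *Smad2/3* cKO + vehicle, and 161, 119, 214 and 187 in *Smad2/3* cKO + A83-01. The spread inside control + vehicle covered most of the range of the other groups, and *Smad2/3* cKO + vehicle replicate 3 was again the highest of its group. The lowest adjusted p of *Btc* was 0.259, for a log2 fold change of −0.77 (SE 0.45) in *Smad2/3* cKO + vehicle against control + vehicle, and with A83-01 in both genotypes the value was −0.84 (SE 0.27, adjusted p = 0.338).

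*Ereg*, the gene of epiregulin, varied more within groups than between them. It was 78.1, 86.5 and 32.8 in control + vehicle, 36.0, 189, 111 and 84.4 in control + A83-01, 102, 11.4, 75.5 and 10.6 in *Smad2/3* cKO + vehicle, and 11.9, 126, 60.7 and 37.5 in *Smad2/3* cKO + A83-01. Its coefficient of variation within the groups ran from 44.0% to 92.6%, and its log2 fold changes of 0.56, −0.92, 0.45 and −1.03 in the 4 comparisons had standard errors of 0.59, 0.85, 0.89 and 0.71. *Nrg1*, the gene of neuregulin 1, was 161, 116 and 83.5 in control + vehicle, 197, 98.5, 28.2 and 46.6 in control + A83-01, 60.5, 18.2, 79.0 and 11.3 in *Smad2/3* cKO + vehicle, and 33.6, 103, 27.3 and 47.1 in *Smad2/3* cKO + A83-01. The 4 *Smad2/3* cKO + vehicle samples lay under the 3 control + vehicle samples, by a small margin between 79.0 and 83.5. The log2 fold change of *Nrg1* there was −1.83 (SE 0.67, 95% interval −3.34 to −0.33, adjusted p = 0.0871). Without *Smad2/3* cKO + vehicle replicate 2, the library with macrophage genes, the values against control + vehicle were −1.58 for *Nrg1* (adjusted p = 0.164), −0.45 for *Ereg*, −0.63 for *Btc* and −0.41 for *Tgfa*, and between the *Smad2/3* cKO groups *Ereg* went from 0.45 to −0.02 and *Hbegf* from −0.01 to −0.39. *Egf* itself was between 0 and 18.1 in the 15 samples, and was too low to be tested. The human EGF of the medium is a protein and adds nothing to these counts.

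*Egfr*, the receptor gene on chromosome 11, was 930, 812 and 877 in control + vehicle. It was 530, 729, 514 and 573 in control + A83-01, 636, 399, 496 and 424 in *Smad2/3* cKO + vehicle, and 598, 640, 441 and 438 in *Smad2/3* cKO + A83-01. The lowest control + vehicle sample, at 812, was above all 12 other samples, and the 3 other groups overlapped one another. The mean was 873 ± 59.2 (SD, n = 3), 586 ± 98.0 (n = 4), 489 ± 107 (n = 4) and 529 ± 105 (n = 4) in this order of groups. The log2 fold change of *Egfr* was −0.86 (SE 0.19, 95% interval −1.28 to −0.43, limma adjusted p = 0.0146) for *Smad2/3* cKO + vehicle against control + vehicle, or a fold of 0.552, and −0.59 (SE 0.18, 95% interval −1.001 to −0.17, adjusted p = 0.0954) for control + A83-01 against control + vehicle, or a fold of 0.667. Neither passed the adjusted p of 0.01. The first value passed when all 15 samples shared 1 fit (adjusted p = 0.00744) and without *Smad2/3* cKO + vehicle replicate 1 (−0.99, adjusted p = 0.00944), and without replicate 2 it was −0.77 (adjusted p = 0.0323).

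A83-01 went with a log2 fold change of *Egfr* of 0.12 (SE 0.20, 95% interval −0.33 to 0.57) in *Smad2/3* cKO organoids. The difference of its effect between the genotypes was 0.70 (SE 0.27, 95% interval 0.13 to 1.28), with an adjusted p of 0.236 over 13066 genes. In that test 0 of the 9 members tested passed, where 0.551% of all genes did. The log2 fold change with A83-01 was higher in *Smad2/3* cKO than in control organoids for 0.0995% and lower for 0.452%. *Egfr* was the 1 member with an unadjusted p below 0.05 in limma there, against 14.3% of all genes.

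*Erbb2*, the gene of the ligandless partner receptor, also on chromosome 11, was 2128, 2225 and 2717 in control + vehicle, 1714, 2005, 2424 and 2542 in control + A83-01, 2303, 2312, 2651 and 2966 in *Smad2/3* cKO + vehicle, and 2617, 2326, 3304 and 3250 in *Smad2/3* cKO + A83-01. The groups overlapped in all 4 comparisons. Its log2 fold change was 0.12 (95% interval −0.21 to 0.45) for *Smad2/3* cKO + vehicle and −0.13 (95% interval −0.54 to 0.29) for control + A83-01 against control + vehicle. The value between the groups grown with A83-01 was 0.41 (SE 0.18, 95% interval 0.01 to 0.80, adjusted p = 0.519). *Erbb3*, the gene of the receptor for neuregulins, was 1935, 2567 and 2523 in control + vehicle, 1089, 2732, 2415 and 1677 in control + A83-01, 1912, 2661, 2172 and 2538 in *Smad2/3* cKO + vehicle, and 2164, 1562, 2550 and 2495 in *Smad2/3* cKO + A83-01. The lowest *Erbb3* in each A83-01 group was in the replicate with the lowest mitochondrial share. In control + A83-01 the order of *Erbb3* was that of this share (0.419%, 1.392%, 1.087% and 0.514%). The other groups did not keep this order. In both vehicle groups the lowest *Erbb3* was in replicate 1 and the lowest share in replicate 3. In *Smad2/3* cKO + A83-01 the highest *Erbb3* was in replicate 3, with a share of 0.735%. The part of this share was not tested. The log2 fold change of *Erbb3* was −0.01 (95% interval −0.38 to 0.35) for *Smad2/3* cKO + vehicle and −0.32 (95% interval −1.005 to 0.37) for control + A83-01 against control + vehicle. The intervals of *Erbb2* and *Erbb3* in the *Smad2/3* cKO comparison did not reach the −0.86 of *Egfr* there, whereas that of *Erbb3* in the A83-01 comparison held the −0.59 of *Egfr*. Without control + A83-01 replicate 1, the sample apart on the second component, the values against control + vehicle were −0.06 for *Erbb3*, −0.02 for *Erbb2*, −0.54 for *Egfr*, −1.18 for *Nrg1*, 0.99 for *Ereg* and −0.13 for *Tgfa*, with adjusted p-values in limma from 0.134 for *Egfr* to 0.961 for *Erbb2*. Between the groups grown with A83-01 *Erbb3* then went from 0.21 to −0.05 and *Nrg1* from −0.62 to −0.14.

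The number of members whose groups did not overlap was read against all genes. For control + A83-01 against control + vehicle, *Areg*, *Hbegf* and *Egfr* lay wholly lower (3 of 9 tested), as did 11.5% of all genes, and 0 members lay wholly higher, as did 10.3%. For *Smad2/3* cKO + vehicle against control + vehicle, *Areg*, *Egfr* and *Nrg1* lay wholly lower (3 of 9), as did 16.0% of all genes, and 0 lay wholly higher (14.8%). Between the *Smad2/3* cKO groups and between the groups grown with A83-01, 0 members were apart, where 1.88% and 3.38% of all genes lay wholly higher and 1.02% and 2.73% wholly lower.

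**Figure D2:**
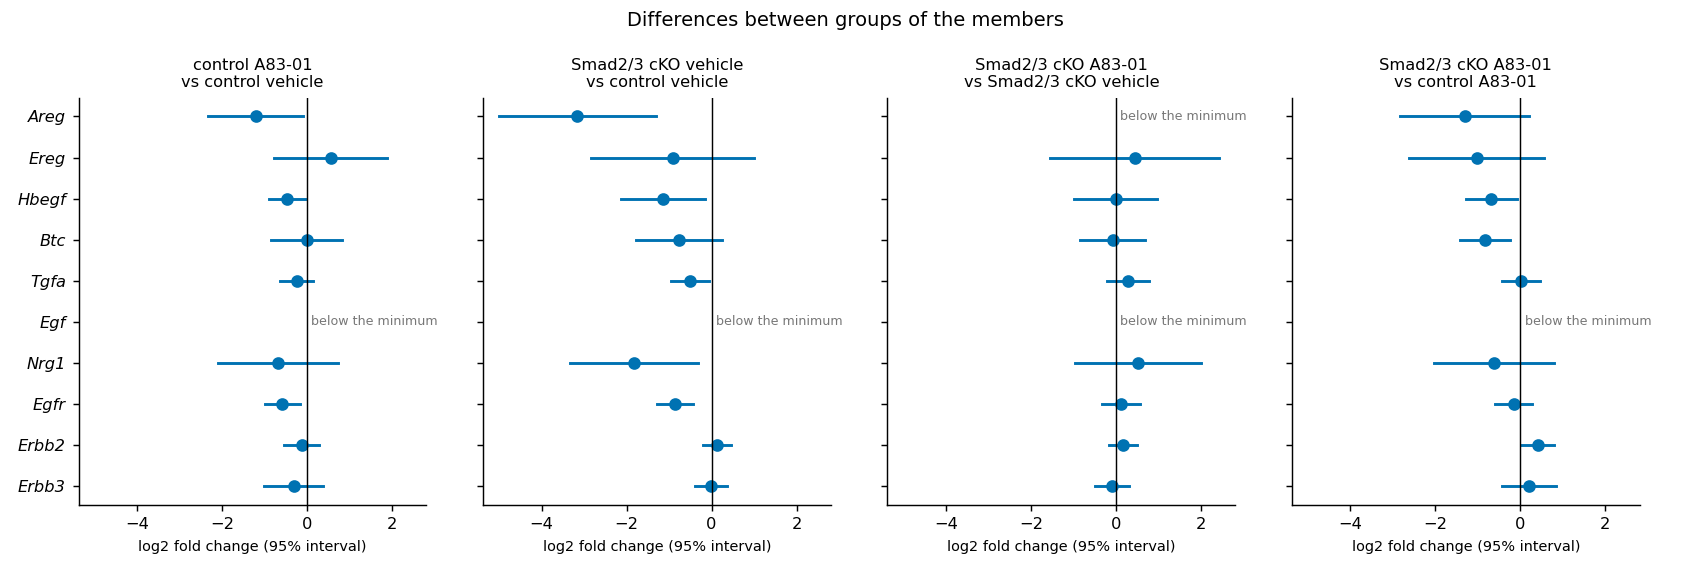
Log2 fold change on the log2(normalized count + 1) scale of each member in the 4 comparisons of 2 groups (points) with 95% intervals from limma (lines), and a note where the gene was under the minimum mean of 10. The intervals of *Areg*, *Hbegf* and *Egfr* lie below 0 in the 2 comparisons with control + vehicle, whereas those between the *Smad2/3* cKO groups all include 0.

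Levels can be set side by side between genes only per length, and for this the normalized count was divided by the kilobases of exon of each gene. This length joins all annotated exons of a gene, 11326 bases for *Egfr* and 5210 for *Erbb2*. The transcripts present may be shorter, so the order and shares between genes are approximate. Over all 15 samples the mean per kilobase was 480 for *Erbb2*, 366 for *Erbb3*, 266 for *Hbegf*, 163 for *Tgfa*, 54.0 for *Btc*, 53.2 for *Egfr*, 18.0 for *Areg*, 17.0 for *Ereg*, 7.16 for *Nrg1* and 0.566 for *Egf*. By this measure the organoids held *Erbb2* and *Erbb3* at several times the level of *Egfr*. Some neighbours in this order could not be told apart by sample: *Btc* was above *Egfr* in 7 of 15 samples, *Areg* above *Ereg* in 7 of 15, *Erbb3* above *Hbegf* in 10 of 15 and *Hbegf* above *Tgfa* in 11 of 15. *Erbb2* was above *Erbb3* in 14 of 15 samples, and *Tgfa* above *Btc*, *Egfr* above *Areg* and *Nrg1* above *Egf* in 15 of 15.

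The 7 ligands together came to 739 ± 71.7 per kilobase (SD, n = 3) in control + vehicle, 577 ± 46.0 (n = 4) in control + A83-01, 415 ± 200 (n = 4) in *Smad2/3* cKO + vehicle and 423 ± 106 (n = 4) in *Smad2/3* cKO + A83-01. The *Smad2/3* cKO + vehicle samples ranged from 230 to 679 and reached into the control + vehicle range of 661 to 801. *Hbegf* made up 54.2% ± 1.85 of the ligand sum in control + vehicle, 50.7% ± 7.04 in control + A83-01, 48.4% ± 9.38 in *Smad2/3* cKO + vehicle and 44.2% ± 7.79 in *Smad2/3* cKO + A83-01. *Tgfa* made up 26.1% ± 3.72, 28.2% ± 4.19, 36.2% ± 9.78 and 40.1% ± 6.63. *Hbegf* and *Tgfa* were the leading ligands in every group. Of the 3 receptors summed, *Egfr* was 8.49% ± 1.41, 6.67% ± 1.45, 4.79% ± 1.49 and 5.08% ± 1.87 in the same order of groups, while the sum itself stayed between 797 and 963 per kilobase in the means.

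**Figure D3:**
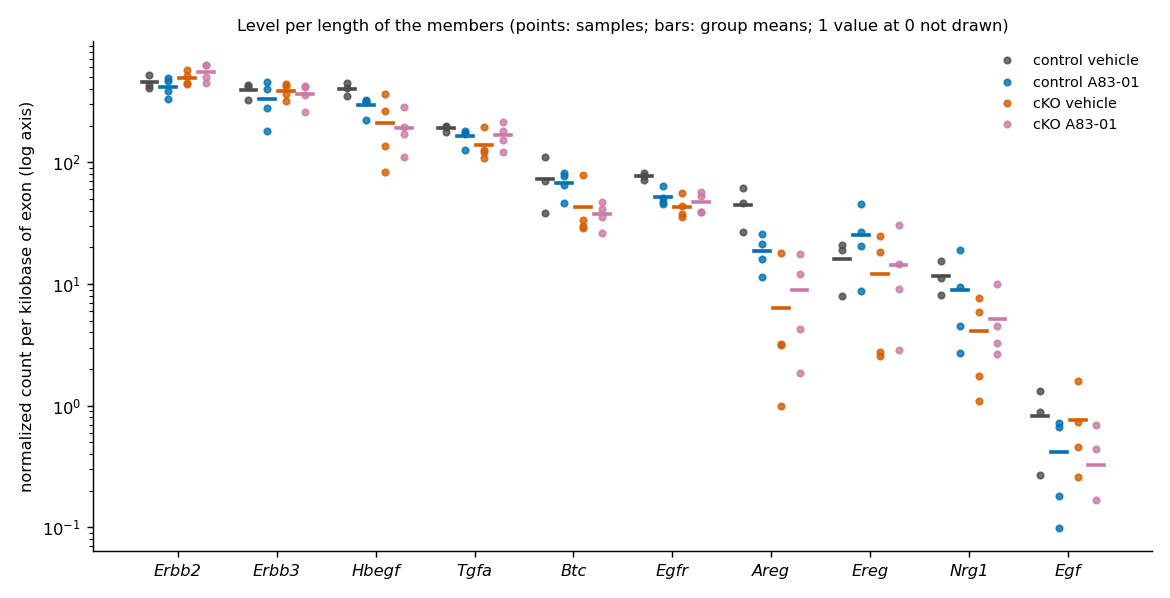
Normalized count per kilobase of exon (log axis) of the 10 members in order of their mean, with a point per sample and a bar at each group mean. *Erbb2* and *Erbb3* stand highest at means of 480 and 366, *Hbegf* leads the ligands at 266, and the single *Egf* value of 0 is not drawn.

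Members of the pathway around these genes were read from 5 further lists of 68 genes, of which 64 were tested in each comparison. For *Smad2/3* cKO + vehicle against control + vehicle 8 fell and 1 rose, for control + A83-01 against control + vehicle 4 fell and 0 rose, and 0 passed in the other 2 comparisons and in the test of the difference between genotypes. The lower and higher shares of all genes in the first of these were 3.30% and 4.08%, and in the second 1.08% and 1.19%. With every sample rescaled to the same total, 537 of all genes were lower and 440 higher in the first, where 434 and 536 were as deposited.

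Of the 13 ERK response genes, the early targets of the RAS to ERK cascade, 4 fell and 0 rose in *Smad2/3* cKO + vehicle against control + vehicle, with a list median of −0.81. *Fos*, an immediate early gene and part of AP-1, was 2581, 2178 and 2381 in control + vehicle, 719, 515, 390 and 536 in control + A83-01, 406, 644, 552 and 260 in *Smad2/3* cKO + vehicle, and 256, 262, 510 and 212 in *Smad2/3* cKO + A83-01. All 12 samples with a Cre, an inhibitor or both lay at 719 or less, far from the lowest control + vehicle sample. *Fos* fell by 2.43 on the log2 scale in *Smad2/3* cKO + vehicle (SE 0.28, adjusted p = 0.000994) and fell by 2.17 in control + A83-01 (SE 0.22, adjusted p = 0.0011), each against control + vehicle. *Etv5*, an ETS factor used as a readout of ERK, *Junb*, another AP-1 gene, and *Myc* had log2 fold changes of −1.27, −0.94 and −0.81 in the *Smad2/3* cKO comparison (adjusted p = 0.00713, 0.00404 and 0.00675). In control + A83-01 *Etv5* had a fold of 0.379 (adjusted p = 0.0107) and *Junb* a log2 fold change of −0.80 (adjusted p = 0.0292), neither past the threshold, and *Myc* had a log2 fold change of −0.14 (adjusted p = 0.733). *Fos* was the 1 ERK response gene to pass in control + A83-01, where the list median was −0.08. Of the 13 genes, 3 lay wholly below control + vehicle there (*Fos*, *Etv5* and *Junb*) and 3 wholly above (*Jun*, *Fosl1* and *Ier3*). Of all genes, 11.5% lay wholly lower and 10.3% wholly higher. *Jun* had a log2 fold change of 0.76 (adjusted p = 0.0746).

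Of 18 brakes on the receptors and on ERK, 2 fell in each comparison with control + vehicle and 0 rose, with list medians of −0.25 for control + A83-01 and −0.35 for *Smad2/3* cKO + vehicle. *Lrig1*, a membrane protein that promotes the breakdown of ERBB receptors, was 6786, 6239 and 6145 in control + vehicle, 2471, 3886, 3000 and 2340 in control + A83-01, and 3205, 3652, 3421 and 2757 in *Smad2/3* cKO + vehicle. On the log2 scale it fell by 1.16 in control + A83-01 (adjusted p = 0.00964) and fell by 0.98 in *Smad2/3* cKO + vehicle (adjusted p = 0.00185). *Dusp4* and *Dusp6*, phosphatases that switch ERK off and are themselves ERK targets, were both wholly below control + vehicle in each comparison. *Dusp4* fell by 1.48 in control + A83-01 (adjusted p = 0.00464) and had −1.64 in *Smad2/3* cKO + vehicle (adjusted p = 0.0177). *Dusp6* fell by 0.87 in *Smad2/3* cKO + vehicle (adjusted p = 0.00438) and had −0.80 in control + A83-01 (adjusted p = 0.0193).

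Among 26 adaptors and kinases below the receptors, 1 fell in control + A83-01, and 1 fell and 1 rose in *Smad2/3* cKO + vehicle, with list medians of −0.06 and 0.01. *Map2k1*, which encodes the ERK kinase MEK1, was 4305, 4298 and 5412 in control + vehicle, 2253, 2610, 2501 and 2331 in control + A83-01, 2115, 2342, 2384 and 2373 in *Smad2/3* cKO + vehicle, and 1770, 2468, 2313 and 2888 in *Smad2/3* cKO + A83-01. The 12 samples outside control + vehicle all lay below its lowest value. On the log2 scale *Map2k1* fell by 0.94 in control + A83-01 (SE 0.15, adjusted p = 0.00739) and fell by 1.01 in *Smad2/3* cKO + vehicle (SE 0.13, adjusted p = 0.00144). *Stat5b*, a signal transducer that ERBB receptors can activate, rose by 0.89 in *Smad2/3* cKO + vehicle (adjusted p = 0.00843), from 693, 892 and 1045 to 1425, 1747, 1465 and 1808. Of the 6 genes for the release of ligands, *Rhbdf1*, which brings the protease ADAM17 to the cell surface, fell by 0.88 in *Smad2/3* cKO + vehicle (adjusted p = 0.00856), and the list median was −0.22. Of the other ligands and receptors of the family, *Epgn*, *Nrg2* and *Erbb4* were under the minimum, *Nrg3* had no row, and *Nrg4* was tested, with a log2 fold change of 1.08 (SE 0.38, adjusted p = 0.130) in control + A83-01, whose samples were all above control + vehicle, and of 0.89 (SE 0.38, adjusted p = 0.132) in *Smad2/3* cKO + vehicle.

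The calls of these genes rested on few samples. When each of the 7 samples of a comparison was left out in turn, *Fos* and *Map2k1* kept their calls in 7 of 7 fits and *Lrig1* in 6 of 7 for *Smad2/3* cKO + vehicle against control + vehicle, *Junb* in 3, *Dusp6* in 2, *Etv5*, *Myc* and *Stat5b* in 1 and *Rhbdf1* in 0. In control + A83-01 against control + vehicle *Fos* kept its call in 6 of 7 fits, *Dusp4* in 2, *Lrig1* in 1 and *Map2k1* in 0, while no log2 fold change changed sign. Each gene that lost its call lost it, among others, without control + vehicle replicate 1, where *Fos* had an adjusted p of 0.0104 in control + A83-01 and *Lrig1* one of 0.0116 in *Smad2/3* cKO + vehicle, and the highest adjusted p over all these fits was 0.0548, for *Lrig1* in control + A83-01. Without *Smad2/3* cKO + vehicle replicate 2, the library with *Lyz2* and *Adgre1*, *Rhbdf1*, *Stat5b* and *Myc* had adjusted p-values of 0.0104, 0.0217 and 0.0168. In a fit that pairs replicates 1 to 3 of the control groups, and so drops control + A83-01 replicate 4, *Lrig1* had an adjusted p of 0.0123 in control + A83-01 against control + vehicle, and *Fos*, *Dusp4* and *Map2k1* passed.

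**Figure D4:**
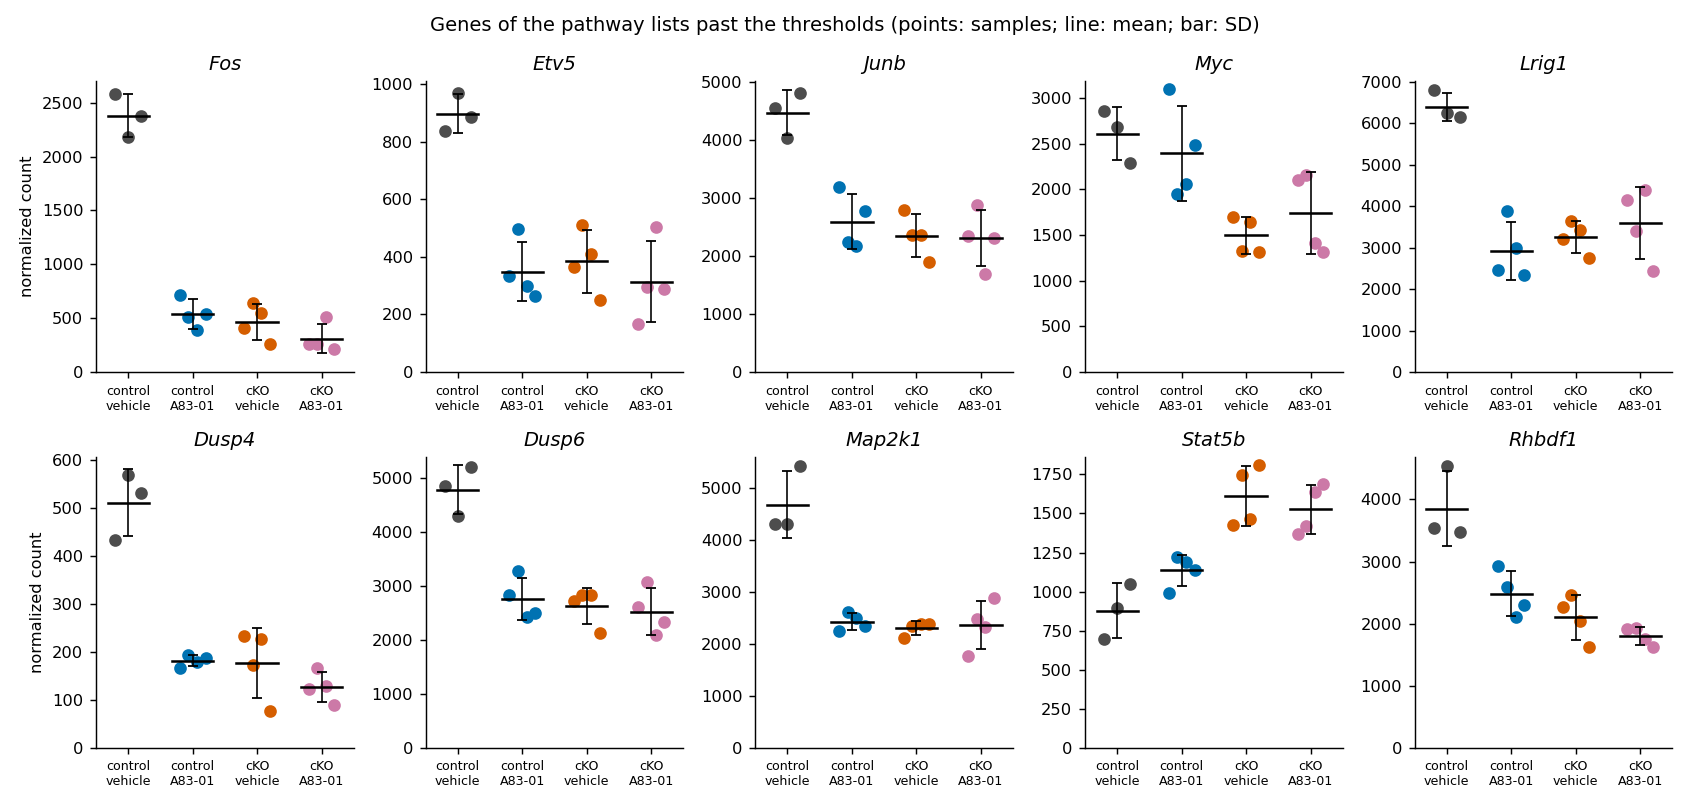
Normalized count (linear axes from 0) of the 10 pathway genes past the thresholds in at least 1 comparison, with a point per sample, a line at the group mean and a bar of 1 SD. The 3 control + vehicle samples of *Fos*, between 2178 and 2581, lie far above the other 12, which are at most 719, and the 4 *Smad2/3* cKO + vehicle samples of *Stat5b*, from 1425 to 1808, lie above the 3 of control + vehicle.

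The genes most like each member over the 15 samples were found by Pearson correlation of the log2 values among 13066 genes, as a description. The points share the groups, so a difference between groups alone gives a high value. *Hbegf* was most like *Wnt7a* (r = 0.970), *Plaur* (r = 0.967), the gene of the urokinase receptor, and *Wnt7b* (r = 0.967), and both WNT genes are markers of the luminal epithelium. *Areg* was most like *Cavin3* (r = 0.921), *Krt6a* (r = 0.917) and *Pdlim2* (r = 0.906). *Egfr* was most like *Zfp449* (r = 0.940), *Rbpms2* (r = 0.903) and *Trp53i11* (r = 0.884), *Erbb2* like *Cry2* (r = 0.895), *Erbb3* like *Cltc* (r = 0.961), *Tgfa* like *Col18a1* (r = 0.887), *Btc* like *Wdr35* (r = 0.879), *Ereg* like *Artn* (r = 0.869) and *Nrg1* like *Ier5* (r = 0.900). With the group means removed, the 3 highest of the 45 pairs of members were *Hbegf* with *Ereg* (r = 0.740), *Areg* with *Tgfa* (r = 0.739) and *Btc* with *Tgfa* (r = 0.623), and the 3 lowest were *Erbb2* with *Nrg1* (r = −0.683), *Hbegf* with *Egf* (r = −0.660), a gene of low counts, and *Erbb3* with *Nrg1* (r = −0.648).

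Markers of the luminal epithelium moved with *Hbegf*. The summed level of the 5 luminal markers ran from 8799 to 14592 in control + vehicle (median 12748), from 6403 to 10171 in control + A83-01 (median 8070), from 2278 to 8642 in *Smad2/3* cKO + vehicle (median 5013) and from 3098 to 8144 in *Smad2/3* cKO + A83-01 (median 5547). *Wnt7a* was 95.7 in *Smad2/3* cKO + vehicle replicate 2, the sample with the lowest *Hbegf*, and between 145 and 2235 in the other 14. *Krt6a*, the gene of like pattern to *Areg*, is one of 6 squamous or basal markers. In control + vehicle these summed to between 4603 and 10152, whereas control + A83-01 had sums from 8016 to 26796. The sums of *Smad2/3* cKO + vehicle were 1899 to 17465, and with A83-01 they were 4395 to 14521. The 6 glandular markers summed to 4246 to 4476 in control + vehicle and 2611 to 4079 in control + A83-01. Their sums were 3005 to 10976 in *Smad2/3* cKO + vehicle and 3279 to 11271 in *Smad2/3* cKO + A83-01. Most of the 2 highest sums was *Prss29* (6403 and 7875), which was 0 in all control + vehicle samples. Ciliated cell markers (3 found of 5) summed to 71.4 to 95.02 in control + vehicle and 8.76 to 74.6 in the other 12 samples, and smooth muscle markers (4 of 5) to 73.9 to 219 against 29.9 to 86.5. Leukocyte markers (5 of 7) summed to 1315 to 2938 in control + vehicle and 2117 to 8763 in the other 12. Outside *Smad2/3* cKO + vehicle replicate 2, *Cd68* made up most of these sums, at up to 8115. The markers did not move together. From control + vehicle to control + A83-01, *Lyz2* went from 41.2 to 70.8 down to 5.24 to 15.1. *Ptprc*, a gene of all leukocytes, was 12.5 to 38.5 in control + vehicle and 68.5 to 236 in control + A83-01. The part of these markers in the values of the members was not tested.

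**Figure D5:**
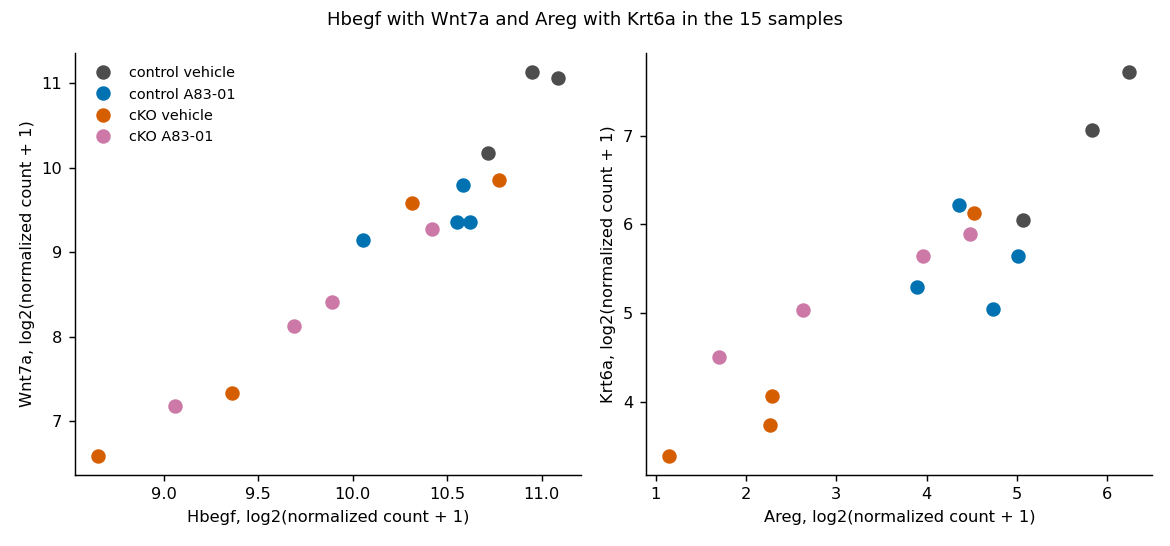
Log2(normalized count + 1) of *Hbegf* against *Wnt7a* and of *Areg* against *Krt6a*, with a point for each of the 15 samples coloured by group. The points rise together (r = 0.970 and r = 0.917), and *Hbegf* in *Smad2/3* cKO + vehicle runs from 402, the lowest point, to 1749, within the control + vehicle range.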

How the data were processed

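RNA of endometrial organoids was measured in 15 samples of 4 groups, set by the genotype and treatment in the labels. The authors made libraries with a low-input kit (SMART-Seq v4), sequenced paired reads of 150 bases and, per the labels, ran Salmon 1.4.0 on GRCm39 and DESeq2 1.32.0. The authors deposited a matrix whose signal values are estimated counts per gene scaled by a size factor per sample. Against each gene's geometric mean, every sample had a median ratio of 1.01137. Whole reads could not be recovered from it, so tests made for raw counts were not used. The study's methods give 1 approximate number of reads for all samples alike, and the depth of each sample cannot be read from the scaled values.

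Of 16729 genes, 16697 were matched to a symbol in the GENCODE annotation of GRCm38, and 17 symbols were shared by more than 1 identifier. Exon lengths came from it, and promoter sequences from RefSeq on GRCm38.p6, without the 50 bases after the start. A search of the proteins for the EGF-like motif was planned and not run, since no protein sequences were at hand.

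For each pair of groups, log2(value + 1) of those samples alone went into limma 3.58.1 in R 4.3.3 (eBayes with trend). Genes whose mean there was under 10 were left out, with Benjamini-Hochberg adjustment over the rest. Unless another is named, every adjusted p is from limma. The difference of the A83-01 effect between genotypes was a contrast over all 15 samples. The fits were tested on simulated data. The members and the pathway and marker lists were chosen with earlier results of these data known. Named genes were all members, at most 8 genes per pathway list past the thresholds in a comparison of 2 groups, the 3 most correlated genes of a member with a mean of at least 10 (for *Erbb2*, *Erbb3*, *Tgfa*, *Btc*, *Ereg* and *Nrg1* the first alone is printed), and *Smad2*, *Smad3* and *Smad7* as checks. One further check gene is not reported here. *Jun*, *Fosl1*, *Ier3*, *Nrg4*, *Lyz2*, *Adgre1*, *Ptprc*, *Cd68*, *Epcam*, *Krt19*, *Krt5*, *Krt14*, *Sprr1a*, *Prss29* and *Wnt7a* were named after their values were seen. So were the other genes of lists short of the thresholds.

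Replicate numbers pair the control groups. Deviations from the group mean correlated at r = 0.354 to 0.423 in the 3 same-numbered pairs and at a mean of −0.133 in the other 9. Alternatives were pseudocounts, no filter, rescaling to the same total, eBayes without trend, an adjusted p of 0.05, a replicate block, all samples in 1 fit, the number series of the labels (below 390 or not) as a covariate and leaving out each sample. Leaving out *Smad2/3* cKO + vehicle replicate 2 for its macrophage genes was added after the data were seen.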

Additional observations from a re-analysis of the deposited data

Results flagged for a closer look

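In 12 of 69 groups of 4 samples, 1 sample lay far from the other 3 by Dixon's criterion. It looks for a gap that is large against the whole range of the group. For normally spread values chance alone gives about 1 in 20, but the criterion was applied to unlogged counts. The genes tested also include *Lyz2* and *Adgre1*, named after their values were seen. The number of flags can therefore not be set against chance. Among the members, *Areg* was 22.0 and *Btc* 355 in *Smad2/3* cKO + vehicle replicate 3, each the highest of its group. *Hbegf* was 1064 in control + A83-01 replicate 2 and *Tgfa* 820 in control + A83-01 replicate 1, each the lowest. Among the pathway genes, *Dusp6* was 2129 in *Smad2/3* cKO + vehicle replicate 4 and *Map2k1* 2115 in replicate 1 of that group, both the lowest, and *Fos* was 510 in *Smad2/3* cKO + A83-01 replicate 3, the highest.

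Of the macrophage markers, *Smad2/3* cKO + vehicle replicate 2 held *Lyz2* at 3372 and *Adgre1* at 351. Control + A83-01 replicate 1 held *Lyz2* at 15.1 and *Adgre1* at 9.01, and *Smad2/3* cKO + A83-01 replicate 1 held *Adgre1* at 1.08, levels near the lowest that can be measured. The part of these libraries in the members' values was not tested beyond leaving them out.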

How the results depend on the processing

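No member passed the thresholds in control + A83-01 against control + vehicle, in the 2 comparisons that do not hold control + vehicle or in the test of the difference between genotypes under any alternative run. In *Smad2/3* cKO + vehicle against control + vehicle, 2 members (*Egfr* and *Areg*) passed at an adjusted p of 0.05 and 1 (*Egfr*) with all 15 samples in 1 fit, and leaving out each sample in turn gave 0 to 1. The number of all genes past the thresholds moved more. For control + A83-01 against control + vehicle (295) it was 955 at an adjusted p of 0.05, 655 with all samples in 1 fit, 443 with the label number as a covariate and 49 to 312 when each sample was left out, lowest without control + vehicle replicate 2 (53 without replicate 1). For *Smad2/3* cKO + vehicle against control + vehicle (970) it was 452 with eBayes without trend, 2410 at an adjusted p of 0.05, 211 with the replicate block and 280 to 992 when each sample was left out, lowest without control + vehicle replicate 1 (288 without replicate 2). For the groups grown with A83-01 (3) it was 1 with eBayes without trend, 0 with the replicate block, 5 with all samples in 1 fit and 0 to 4 when each sample was left out. For the difference between genotypes (72) it was 208 at an adjusted p of 0.05 and 39 to 77 when each sample was left out, lowest without control + vehicle replicate 2. Rescaling every sample to the same total turned the split in the *Smad2/3* cKO comparison from 536 higher and 434 lower to 440 higher and 537 lower. The cause was not tested. The replicate block changed no call of a member, with *Egfr* at an adjusted p of 0.109 in control + A83-01 and 0.0451 in *Smad2/3* cKO + vehicle. Every same-numbered pair correlated above 0.1 in the control groups alone, and elsewhere the block joins replicates whose label numbers differ, apart from replicate 1 of the vehicle groups. The 1 label number that both *Smad2/3* cKO groups hold (vehicle replicate 2 and A83-01 replicate 1, r = 0.355) is not joined by it. The log2 fold changes of *Ereg*, *Btc*, *Erbb3*, *Tgfa* and *Hbegf* changed sign under some alternatives, in comparisons where they passed no threshold. The number covariate was not run where a group holds numbers of 1 kind alone.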
